A study of Homo sapiens with 4 samples.

Results

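*FLI1* and 9 other genes of the ETS transcription factor family (*ERG*, *ETS1*, *ETS2*, *ETV1*, *ETV4*, *ETV5*, *ETV6*, *ELK3* and *GABPA*) were followed in glioblastoma cells with and without *FLI1* knockdown. The members were chosen by name, and their levels were the summed counts of all linear RNA rows under 1 Entrez identifier. Of the 10 members, 9 were found among the 46660 gene identifiers analysed here, and *ERG* was not among these rows. The other 18 genes of the human ETS family (28 in all) were read beside them, and 15 of these had rows.

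ETS factors share a winged helix-turn-helix domain that binds DNA around a GGAA core, and a cell usually expresses many of them at once. *FLI1*, *ERG*, *ETS1* and *ETS2* are activators known from blood and endothelial cells, and *FLI1* forms part of the EWSR1-FLI1 fusion of Ewing sarcoma. *ETV1*, *ETV4* and *ETV5* form the PEA3 group, whose transcription follows growth factor and MAPK signalling. *ETV6* is a repressor, *ELK3* is a ternary complex factor that works with SRF, and *GABPA* is the DNA-binding subunit of GABP, a regulator of nuclear genes of mitochondrial function.

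The 4 libraries were 1 of control and 1 of shFLI1 cells in each of U87MG and U251MG, which are established human glioblastoma cell lines. All cells carried the lentiviral vector and had passed puromycin selection, the control with the empty vector (pGreen, called shControl in the titles) and the shFLI1 cells with shRNA against *FLI1*. The series describes 2 such shRNAs and mixed stable cells, and the labels do not say which shRNA a library carries. Each arm has 1 library per cell line, so no spread between cultures could be measured there, and the 95% Clopper-Pearson intervals of single genes cover counting error only.

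Library totals ran from 12229780 to 28891055 counts, and the shFLI1 library was the deeper one in both cell lines. The glial and glioma markers *VIM*, *CD44*, *SOX2*, *NES* and *GFAP* were present in every library, while *OLIG2* had 0 to 2 counts and *S100B* 1 to 11. The defining endothelial marker *PECAM1* had 0 to 3 counts and the leukocyte marker *PTPRC* 0 to 5. In each cell line, 3 other endothelial markers and 3 other blood markers had enough counts to be tested. Of 7 endothelial markers 6 had rows, and their summed level was 16.3 CPM (reads scaled to a common library size by the TMM method) in U87MG control, 8.32 in U87MG shFLI1, 7.68 in U251MG control and 14.8 in U251MG shFLI1. Of 6 blood markers 5 had rows and summed to between 3.91 and 5.94 CPM. In bulk cells, fewer expressing cells and less RNA per cell cannot be told apart, and this holds for every level given here.

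*FLI1* lies on chromosome 11 of GRCh38 from 128685132 to 128813267, next to *ETS1* at 128458765 to 128587558 on the same chromosome. It had 107 counts in U87MG control, 52 in U87MG shFLI1, 216 in U251MG control and 111 in U251MG shFLI1. In CPM these are 9.34, 2.34, 12.1 and 3.71, so both control libraries were above both shFLI1 libraries. The shFLI1 level was 25% of control in U87MG (log2 fold change -1.95, 95% interval -2.51 to -1.51) and 30.6% in U251MG (-1.68, -2.05 to -1.37). For a knockdown effect common to U87MG and U251MG, all 4 libraries entered 1 quasi-likelihood fit in edgeR, blocked by cell line, with Benjamini-Hochberg adjustment over all genes. In this shared test *FLI1* fell by 1.85 on the log2 scale (SE 0.25, edgeR adjusted p = 0.0070). This test has 1 residual degree of freedom, and without the block the edgeR adjusted p was 0.745.

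The counts of *FLI1* were spread over 5 RNA rows, of which a pair of predicted RefSeq models held nearly all. XM_017017405 had 59.5 estimated counts in U87MG control, 29.4 in U87MG shFLI1, 155 in U251MG control and 64.4 in U251MG shFLI1, with log2 fold changes of -1.90 and -1.97. XM_011542702 had 45.6, 21.6, 58.1 and 34.9, with log2 fold changes of -1.93 and -1.41. Both rows were thus lower after knockdown in both cell lines. The share of XM_017017405 in the counts of the gene was 55.6% (95% interval 45.2 to 64.8) in U87MG control and 56.6% (41.3 to 69.5) in U87MG shFLI1. In U251MG it was 71.7% (65.3 to 77.7) in control and 58.0% (47.9 to 67.0) in shFLI1. These intervals overlap at their ends, which does not show that the shares were equal, and the difference was not tested. The curated transcript NM_002017 was listed at 0 in 3 libraries and at 5.77 counts in U251MG shFLI1. The remaining rows, URS00008C0316 and URS0001BD37AF, had identical values of 0.5 to 3 counts. *SENCR*, a long non-coding RNA antisense to the start of *FLI1*, had 0, 0, 1 and 0 counts in the same order of libraries, and the neighbouring potassium channel genes *KCNJ1* and *KCNJ5* had 0 to 1 and 0 to 4.

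**Figure D1:**
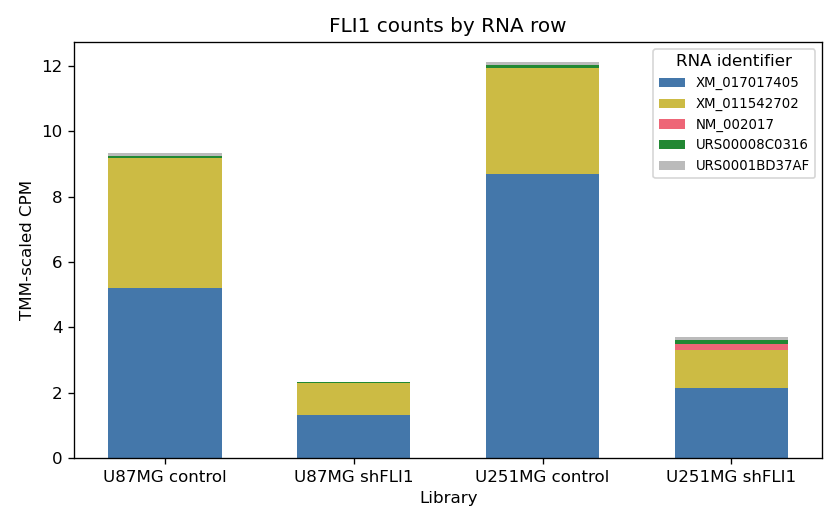
Stacked bars give the TMM-scaled CPM of each *FLI1* RNA row (y axis) in the 4 libraries (x axis), 1 library per bar. XM_017017405 and XM_011542702 make up nearly the whole bar in each library, and the summed height is 9.34 and 12.1 CPM in the controls against 2.34 and 3.71 in shFLI1.

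Levels of different genes were compared per length, with the authors' FPKM (a fragment count divided by transcript length and by library size) summed over the rows of a gene and counting intervals. The intervals use the total count of the gene. They are too narrow where a row with few counts gives much of the FPKM. *FLI1* was one of the lower expressed ETS genes in both control libraries, with 3.20 FPKM in U87MG and 4.44 in U251MG, and it stood at 0.90 and 1.41 FPKM in shFLI1. In U87MG control the members ran *ETV5* 23.1, *ETS1* 19.0, *ETS2* 17.4, *ELK3* 9.17, *ETV6* 7.34, *ETV1* 6.89, *GABPA* 3.96, *FLI1* 3.20 and *ETV4* 1.09 FPKM. The place of *ETV5* above *ETS1* rests on the row URS0000EAEDF7, which gave 5.61 of its 23.1 FPKM from 26.4 estimated counts. Of the neighbours in that order, *ETS1* and *ETS2*, *ETV6* and *ETV1*, and *GABPA* and *FLI1* had overlapping intervals. In U251MG control the order was *ETV5* 43.7, *ETS1* 19.0, *ELK3* 13.7, *ETS2* 12.1, *ETV1* 7.22, *ETV6* 7.06, *GABPA* 4.80, *FLI1* 4.44 and *ETV4* 2.69. There *ELK3* and *ETS2*, *ETV1* and *ETV6*, and *GABPA* and *FLI1* overlapped. Before knockdown, *ETV5*, *ETS1* and *ETS2* thus each stood above *FLI1* in both cell lines, and *ETV4* below it. Among the rest of the family, the repressor *ERF* had the highest FPKM in both controls (48.1 and 45.4) and *ELF4* had 30.2 and 20.7.

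**Figure D2:**
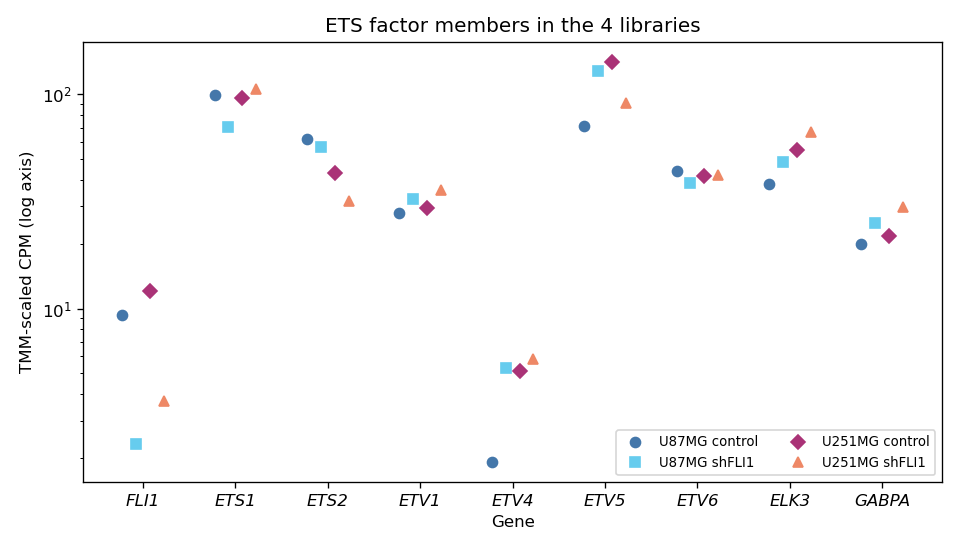
Points give the TMM-scaled CPM (log axis) of the 9 members with rows in each of the 4 libraries, 1 point per library. *FLI1* has both controls above both shFLI1 libraries, *ELK3* and *GABPA* lie higher in shFLI1 than in control within each cell line, and *ETV5* moves in opposite directions in U87MG and U251MG.

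The question of whether a paralog rises when *FLI1* falls was asked of each member in each cell line. Past 2-fold, 2 of 9 members were called in U87MG (*FLI1* lower, *ETV4* higher) and 1 of 9 in U251MG (*FLI1* lower). Of all genes that reached 10 counts in either library of a cell line, 14.5% were past 2-fold in U87MG (10% higher, 4.45% lower). In U251MG it was 9.76% (5.57% higher, 4.19% lower), and 1.45% were more than 2-fold lower in both. The share past 2-fold fell to 4.88% in U87MG and 3.30% in U251MG once a gene had to reach 100 counts rather than 10. All 9 members met this stricter requirement in each cell line, and the same 2 and 1 of them were past 2-fold. By the counting interval alone, 5 of 9 members were higher and 3 lower in U87MG, against 26.7% and 23.3% of all genes. In U251MG 4 were higher and 3 lower, against 24.6% and 23.1%. Whether such an interval clears 0 depends on the count of a gene. These interval shares cover all genes from 10 counts up and were not matched for count. The members whose interval lay above 0 in both cell lines were *ETV1*, *ELK3* and *GABPA*, and 11.8% of all genes did the same. *FLI1* was the member below 0 in both, as were 12.2% of all genes. The median log2 fold change over the 9 members was 0.21 in U87MG and 0.14 in U251MG, where all genes tested had medians of 0.06 and 0.04. In edgeR's shared test, 1 of 9 members (*FLI1*) was called at an adjusted p below 0.05, against 3.06% of all genes, and the other 8 members had adjusted p between 0.28 and 0.93. No member was called higher by that test (0 of 9, and 0 with DESeq2). At an unadjusted p below 0.05 it gave 2 of 9 members, *FLI1* lower and *GABPA* higher, where 2751 of all 16649 genes tested did the same.

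**Figure D3:**
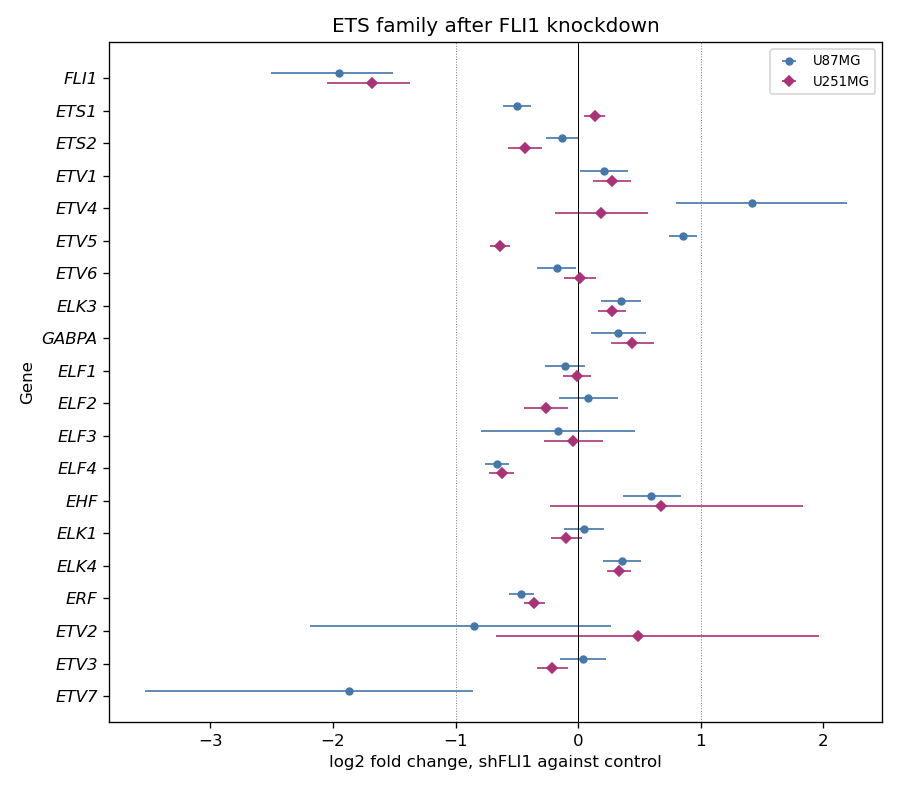
Points are log2 fold changes of shFLI1 against control for the 20 ETS family genes tested in at least 1 cell line (circles U87MG, diamonds U251MG), bars are 95% counting intervals and dotted lines mark 2-fold. *FLI1* lies near -1.95 and -1.68, *ETV4* and *ETV7* pass 2-fold in U87MG, and *ETV5* lies on opposite sides of 0.

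*ETS1*, the gene beside *FLI1*, had 1136 counts in U87MG control, 1561 in U87MG shFLI1, 1709 in U251MG control and 3158 in U251MG shFLI1, or 99.2, 70.2, 95.9 and 105 CPM. U87MG shFLI1 was the low library, with the other 3 close together. The log2 fold change was -0.50 (-0.61 to -0.39) in U87MG and 0.14 (0.05 to 0.22) in U251MG, and the shared edgeR adjusted p was 0.65. The main row, NM_005238, held between 90.6% and 93.4% of its counts. *ETS2* had 61.8, 56.5, 43.0 and 31.8 CPM in the same order, with log2 fold changes of -0.13 (-0.26 to 0.01) and -0.43 (-0.57 to -0.30). It was lower after knockdown in U251MG, and in U87MG its interval touched 0 and total-count scaling turned the value to 0.03. Neither of these closest relatives of *FLI1* with rows was called higher in the shared test (edgeR adjusted p = 0.36 for *ETS2*).

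In the PEA3 group, the difference between shFLI1 and control had opposite signs in the cell lines for *ETV5*, while *ETV1* was at similar values in both. *ETV5* had 815 counts in U87MG control, 2861 in U87MG shFLI1, 2515 in U251MG control and 2716 in U251MG shFLI1, or 71.2, 129, 141 and 90.7 CPM. It was higher after knockdown in U87MG (log2 fold change 0.85, 0.74 to 0.97) and lower in U251MG (-0.64, -0.72 to -0.56). Its shared effect was 0.08 (SE 0.29, edgeR adjusted p = 0.93). NM_004454 held 96.5% to 97.8% of its counts in every library, so the counts of the gene are nearly all those of 1 transcript. This does not hold for FPKM, where NM_004454 gave 16.8 of 23.1 in U87MG control. *ETV5* and *ETS1* were the 2 of 19 family genes tested in both cell lines whose intervals lay on opposite sides of 0, and 7.29% of all genes did the same. *ETV4* had 22, 118, 91 and 174 counts, or 1.92, 5.31, 5.10 and 5.81 CPM. U87MG control was the low library, and the log2 fold change was 1.42 (0.80 to 2.19) in U87MG and 0.18 (-0.19 to 0.57) in U251MG. *ETV1* had 28.0, 32.4, 29.5 and 35.8 CPM and was slightly higher in shFLI1 in both cell lines (0.21, 0.02 to 0.40, and 0.28, 0.13 to 0.43), with an edgeR adjusted p of 0.50.

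Because transcription of *ETV4* and *ETV5* follows MAPK signalling, 8 other output genes of that pathway were read beside them. In U87MG 5 of 8 had intervals above 0 and 3 below, where 26.7% of all genes lay above and 23.3% below. In U251MG 1 of the 8 lay above and 6 below, against 24.6% and 23.1% of all genes. These shares of all genes, too, were not matched for count. *DUSP6*, a phosphatase that restrains ERK, had 12.1 and 21.3 CPM in U87MG control and shFLI1 (log2 fold change 0.80) and 9.93 and 7.68 in U251MG (-0.37). *CCND1*, which encodes cyclin D1, had 85.3 and 135 CPM in U87MG (0.66) and 263 and 179 in U251MG (-0.55). These genes had the signs of *ETV5* in each cell line. *EPHA4* had the reverse, with -0.38 in U87MG and 0.92 in U251MG. *DUSP4*, another ERK phosphatase, was at 0.17 in U87MG and -1.28 in U251MG. *EPHA2*, an ephrin receptor, was lower in both (-0.12 and -1.08). The median over the list was 0.28 in U87MG and -0.37 in U251MG. In the shared edgeR test 0 of 8 passed at an adjusted p below 0.05 (0 with DESeq2), against 3.06% of all genes. At an unadjusted p below 0.05 edgeR gave 1 of the 8, *EPHA2*, where 2751 of all 16649 genes tested did the same. *CIC*, the repressor of PEA3 genes that ERK relieves, had -0.26 (-0.33 to -0.20) in U87MG and 0.14 (0.09 to 0.20) in U251MG. The part of any of these in the *ETV4* and *ETV5* values was not tested.

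**Figure D4:**
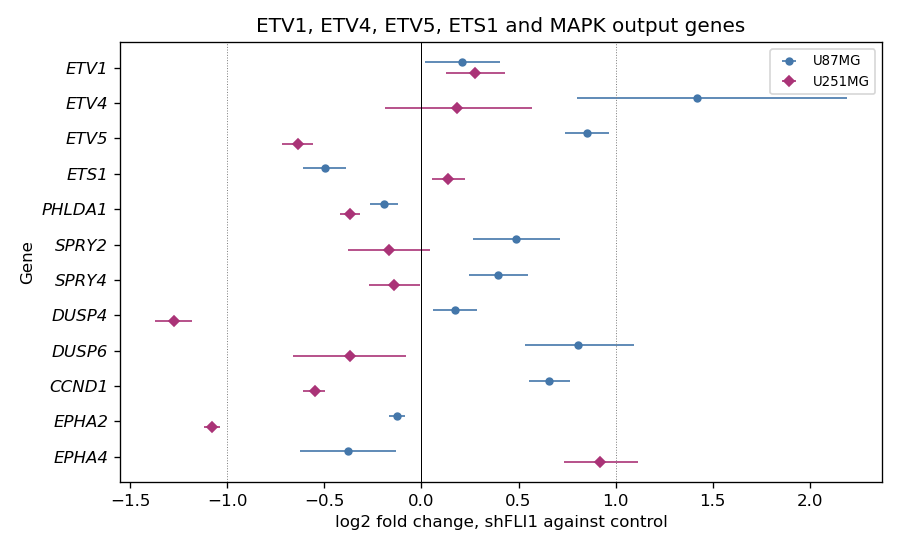
Points are log2 fold changes of shFLI1 against control in U87MG (circles) and U251MG (diamonds) for *ETV1*, *ETV4*, *ETV5*, *ETS1* and 8 MAPK output genes, and bars are 95% counting intervals. *ETV5*, *DUSP6* and *CCND1* lie above 0 in U87MG and below 0 in U251MG, while *ETS1* and *EPHA4* lie the other way.

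*ETV6* had 500, 860, 741 and 1258 counts in U87MG control, U87MG shFLI1, U251MG control and U251MG shFLI1, or 43.7, 38.7, 41.6 and 42.0 CPM. Its summed level was close to even, with log2 fold changes of -0.18 (-0.34 to -0.01) and 0.02 (-0.12 to 0.15) and an edgeR adjusted p of 0.81. Its rows moved apart. The curated transcript NM_001987 held 84.2% of the counts of *ETV6* in U87MG control and 68.7% in U87MG shFLI1, then 86.1% in U251MG control and 66.4% in U251MG shFLI1. The predicted row XM_011520607 had 19.4 estimated counts in U87MG control, 115 in U87MG shFLI1, 24.4 in U251MG control and 219 in U251MG shFLI1. The leading row thus lost 15.5 percentage points in U87MG and 19.7 in U251MG. In other family genes, the share of the leading row changed by -21.5 points in *EHF* and -16.8 in *GABPA* in U87MG, and by -17.5 in *ELF1* in U251MG. It rose in others, as by 11.0 points in *ELK1* in U251MG. Among genes with at least 2 rows and 200 counts in both libraries, the leading row lost 15 points or more in 4.42% of 7616 genes in U87MG and in 3.41% of 9108 in U251MG, with median changes of -0.44 and -0.09 points. The summed FPKM of *ETV6* in U251MG went from 7.06 to 12.6, a difference of 0.76 on the log2(FPKM + 1) scale where the counts gave 0.02. Of the 12.6 FPKM, 5.13 came from 1 row, URS0001BD5ACE, with 1.27 estimated counts, and NM_001987 went from 5.99 to 4.92 FPKM. The split of reads between rows is an estimate of the authors' software, its error was not given, and the shFLI1 libraries were the deeper ones.

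*ETV7*, the closest paralog of *ETV6*, had 18, 8, 8 and 4 counts. It was past 2-fold lower in U87MG (-1.87, -3.54 to -0.85) and was not tested in U251MG, where both libraries were under 10 counts.

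**Figure D5:**
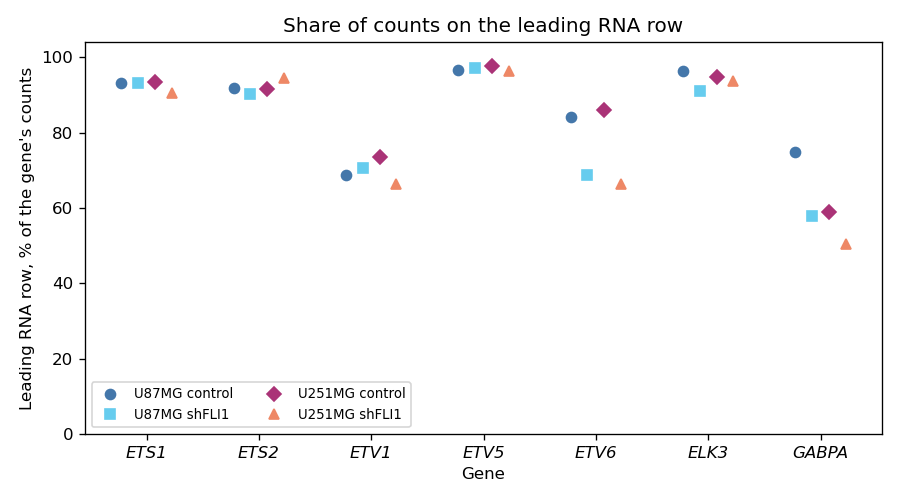
Points give the share of a gene's counts on its leading RNA row (y axis, %) for the 7 members with at least 200 counts in all 4 libraries and more than 1 row. *ETV6* drops from 84.2% to 68.7% in U87MG and from 86.1% to 66.4% in U251MG, and *GABPA* from 74.8% to 58.0% and from 59.1% to 50.4%, while *ETS1* stays between 90.6% and 93.4%.

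*ELK3* and *GABPA* were higher in shFLI1 than in control in both cell lines by counting error, and neither passed the shared test. *ELK3*, a ternary complex factor with repressor activity, had 437, 1080, 979 and 1992 counts, or 38.2, 48.6, 54.9 and 66.5 CPM. The log2 fold changes were 0.35 (0.19 to 0.51) and 0.28 (0.17 to 0.39), and the shared effect was 0.30 (SE 0.14, edgeR adjusted p = 0.34). Its relative *ELK4* had 41.7, 53.4, 70.1 and 88.1 CPM with 0.35 (0.20 to 0.51) and 0.33 (0.23 to 0.43), and an edgeR adjusted p of 0.28. The third ternary complex factor, *ELK1*, had 0.05 and -0.10, with both intervals across 0. Their common partner *SRF* had -0.17 (-0.28 to -0.06) and -0.26 (-0.38 to -0.14).

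*GABPA* had 230, 561, 389 and 888 counts, or 20.1, 25.2, 21.8 and 29.7 CPM, with both shFLI1 libraries above both controls. The log2 fold changes were 0.33 (0.10 to 0.56) and 0.44 (0.27 to 0.62), and the shared effect was 0.37 (SE 0.16, edgeR adjusted p = 0.28). Its leading transcript NM_002040 had log2 fold changes of -0.04 and 0.21, and NM_001197297 had 1.27 and 0.82, from 26.9 to 129 estimated counts in U87MG and from 76.4 to 230 in U251MG. Of the subunits that pair with GABPA, *GABPB1* was at -0.19 and -0.13 and *GABPB2* at -0.09 and -0.28, all 4 intervals across 0. Of the GABP target genes of mitochondrial transcription, *TFAM* had 0.32 (0.14 to 0.50) and 0.19 (0.06 to 0.33), whereas *TFB1M* and *TFB2M* lay between -0.19 and 0.06 with intervals across 0.

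The promoters of *GABPA* and *ELK4* are shown because these genes were higher in shFLI1 in both cell lines and their windows hold the ETS motif that was searched. The motif was CCGGAAG on either strand, in windows from 250 bases before to 50 after the start of a gene in the RefSeq table of GRCh38.p14. Of the members, 6 had a window and 1 of them (*GABPA*) held the motif, and of the whole family 3 of 22. The third, beside *GABPA* and *ELK4*, was *ETV3L*, which was not among the RNA rows. *FLI1*, *ETS1*, *ETV4* and *ETV5* had no window. The windows of *ETV1* and *ELK3*, which were also higher in shFLI1 in both cell lines, did not hold the motif. Of all 35116 windows 10.3% held it, and 12.2% of the 27305 genes behind them. The 250 bases before the start are given 5′ to 3′ on the strand of the gene, with the motif in capitals. The *GABPA* stretch is chr21:25734722-25734971 on the plus strand, where the motif reads on the opposite strand and begins at base -66. The *ELK4* stretch is chr1:205632012-205632261 on the minus strand, with the motif beginning at base -22. A match describes the letters and is not a binding site.
GABPA: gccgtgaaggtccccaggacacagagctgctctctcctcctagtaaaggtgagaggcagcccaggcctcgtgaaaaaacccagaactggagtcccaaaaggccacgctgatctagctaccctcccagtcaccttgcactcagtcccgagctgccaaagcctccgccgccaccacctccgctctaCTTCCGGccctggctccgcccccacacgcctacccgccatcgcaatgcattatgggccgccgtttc
ELK4: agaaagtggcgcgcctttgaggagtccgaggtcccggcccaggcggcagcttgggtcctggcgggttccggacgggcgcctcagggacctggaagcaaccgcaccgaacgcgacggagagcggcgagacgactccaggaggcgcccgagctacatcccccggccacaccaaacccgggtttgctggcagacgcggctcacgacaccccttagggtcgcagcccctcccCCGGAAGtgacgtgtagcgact

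Of the other family genes with rows, *ELF4* was the one called in the shared test. *ELF4*, an activator studied in blood and innate immune cells, had 133 CPM in U87MG control, 83.9 in U87MG shFLI1, 87.6 in U251MG control and 56.8 in U251MG shFLI1. It was lower in shFLI1 in both cell lines (-0.66, -0.76 to -0.56, and -0.62, -0.72 to -0.52). It fell by 0.66 on the log2 scale in the shared test (SE 0.13, edgeR adjusted p = 0.039). The call was lost with total-count scaling (edgeR adjusted p = 0.106), and over all alternatives the adjusted p ranged from 0.0035 to 1.00. *ERF*, a repressor regulated by ERK, had 121, 87.4, 109 and 85.1 CPM, with -0.46 and -0.36 and an edgeR adjusted p of 0.16. *EHF*, an epithelial ETS factor, had 17.9, 27.2, 0.67 and 1.14 CPM, with 0.60 (0.37 to 0.84) and 0.68 (-0.23 to 1.84). *ELF1*, *ELF2*, *ELF3* and *ETV3* had log2 fold changes between -0.26 and 0.08. *ETV2*, known from early blood vessel formation, had 8 to 20 counts. *ELF5*, *SPDEF*, *SPI1* and *SPIB* had 0 to 4 counts in every library, and *SPIC*, *ETV3L* and *FEV* were not among the rows. Of the 28 genes, 19 entered the shared test and 2 of these were thus called, both lower, against 3.06% of all genes.

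For differences between the cell lines, the control and shFLI1 libraries of a line served as its replicates, with 1 residual degree of freedom. The line term of the same edgeR fit called 5 of 19 family genes, against 18.6% of all genes. *ETS2* was the member among them, lower in U251MG by a log2 difference of -0.75 (SE 0.15, edgeR adjusted p = 0.0098). *EHF* was also lower in U251MG (-4.70, edgeR adjusted p = 1.4e-05) and *ELF3*, another epithelial ETS factor, was higher (2.05, edgeR adjusted p = 0.00082). *ELF4* was lower (-0.65) and *ELK4* higher (0.66) in U251MG, each with an edgeR adjusted p of 0.012. Without the knockdown term, the edgeR adjusted p became 0.116 for *ETS2*, 0.290 for *ELF4* and 0.138 for *ELK4*. That fit called 2 family genes, where 531 of all 16649 genes tested were called. *ELK3* did not pass (0.42, edgeR adjusted p = 0.071), and *FLI1* had 0.44 (SE 0.25, edgeR adjusted p = 0.26). *ETV5* and *ETV4* were higher in U251MG than in U87MG between the control libraries, by 0.99 (0.87 to 1.10) and 1.37 (0.73 to 2.15) on the log2 scale. The line term called neither, with 0.16 for *ETV5* (edgeR adjusted p = 0.76) and 0.60 for *ETV4* (edgeR adjusted p = 0.28). Between the shFLI1 libraries *ETV5* had the reverse order, with 129 CPM in U87MG and 90.7 in U251MG.

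Likeness to *FLI1* was measured as the Euclidean distance between log2 CPM values centred on the mean of each gene, over the 4 libraries. The 12184 genes compared had a symbol, at least 10 counts in every library and a mean of at least 50. The nearest were LOC105371082 (distance 0.19), *BST2*, a membrane protein that tethers virus particles (0.40), *STAT2*, a transcription factor of interferon signalling (0.44), *CASP1*, an inflammatory protease (0.44), and *DRD2*, a dopamine receptor (0.44). *BST2* had 896, 244, 867 and 304 CPM, so its ratio of shFLI1 to control was like that of *FLI1* at a far higher level. The closest ETS gene, *ERF*, had a distance of 1.53 and rank 1056, followed by *ELF4* at 1.61. Interferon-stimulated genes moved with the knockdown in the same libraries. Of 8 on the list 7 were tested, and edgeR's shared test called all 7 lower, against 356 of all 16649 genes tested. The summed level of the list was 3399 CPM in U87MG control, 691 in U87MG shFLI1, 4318 in U251MG control and 337 in U251MG shFLI1. Their part in the values of the ETS genes was not tested.

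Of 14 genes known as targets of ETS factors, 0 of 13 tested passed the shared edgeR test at an adjusted p below 0.05 (0 with DESeq2). The share of all genes was 3.06%. At an unadjusted p below 0.05 edgeR gave 1 of the 13, *IER2*, where 2751 of all 16649 genes tested did the same. *EGR1*, an immediate early gene driven by ternary complex factors, had 19.7 and 40.6 CPM in U87MG control and shFLI1 (1.04, 0.83 to 1.26) and 21.3 and 12.7 in U251MG (-0.74, -0.96 to -0.54). *FOS* (0.66 and -0.87) and the urokinase gene *PLAU* (0.52 and -0.61) had the same pair of signs. *BCL2*, the apoptosis inhibitor, had 5.85, 5.66, 6.11 and 4.57 CPM, with -0.05 (-0.49 to 0.40) in U87MG and -0.41 (-0.79 to -0.04) in U251MG. *TERT*, the telomerase subunit, had 19 to 31 counts per library, with -0.24 and -0.79. The list had 4 intervals above 0 and 3 below among 13 genes in U87MG, near the 26.7% and 23.3% of all genes, and 1 above and 9 below among 12 in U251MG, against 24.6% and 23.1%. Again, the shares of all genes were not matched for count. Of 15 partners and regulators of ETS factors, 0 passed the shared edgeR test at an adjusted p below 0.05 (0 with DESeq2), against the same 3.06%. An unadjusted p below 0.05 was reached by 1 of the 15, against the same 2751 of 16649 genes. That gene was *RUNX1*, a frequent DNA-binding partner of ETS factors, at 0.38 (0.19 to 0.57) and 0.31 (0.19 to 0.43), and its cofactor *CBFB* had 0.38 (0.27 to 0.51) and 0.17 (0.08 to 0.27).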

How the data were processed

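RNA-seq was performed on 1 control and 1 shFLI1 library of U87MG and of U251MG cells. Reads were cleaned of adapters and poor-quality bases by the authors and aligned with HISAT2 to GRCh38 (GRCh38.p13 per the submitters' processing notes), and StringTie gave the FPKM. The deposited table gives an estimated count and the authors' FPKM for each RNA, and the tool behind the counts is not given in the sources used here. A further 10 value columns (TPM and means) were not used. Counts of linear RNAs were summed by gene identifier and rounded.

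CPM used TMM factors over all genes (R 4.3.3, edgeR 4.0.16), and log2 fold changes used a prior count of 2. Within a cell line, genes with at least 10 counts in 1 library were called past 2-fold, with no test. The quasi-likelihood fits used all 4 libraries, filterByExpr, TMM over the 16649 genes kept, and terms for knockdown and cell line, so the 2 cell lines served as replicates of the knockdown. For the line term, the control and shFLI1 libraries of a cell line served as its replicates. The study's general statement on biological replicates does not name the RNA-seq, for which 1 library per arm was analysed here. On simulated data, the shared test recovered 200 of 200 genes changed 4-fold among 16296 and called 6 unchanged genes. The simulated counts had the same dispersion for every gene and no cell line difference. The changed genes were well-counted ones, with the same effect in both cell lines. The real libraries differ from these settings. Smaller changes, such as those of the paralogs, were not simulated. How often the test misses or wrongly calls genes in the 4 real libraries was not tested. DESeq2 1.42.0, other scalings, filters, prior counts, thresholds, equal depth and FPKM were alternatives.

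Genes named were every ETS family gene, lists of partners, MAPK outputs, ETS targets, interferon genes and cell type markers, the neighbours of *FLI1* and the 5 genes most like it, and some genes within this rule are left out here. Members and lists were chosen with earlier results of these data known. Intervals cover counting error only, since PCR reads are not independent molecules.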

Additional observations from a re-analysis of the deposited data

Results flagged for a closer look

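The log2 fold change of *ETS1* in U251MG exceeded that in U87MG by 0.64 (95% counting interval 0.50 to 0.77). It was picked out because its levels moved in opposite directions in the cell lines, with 1 library per arm. The same held for *ETV5*, whose log2 fold change in U251MG minus that in U87MG was -1.49 (-1.63 to -1.35). With no replicates, neither difference between the cell lines was tested, and the intervals cover counting error only.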

How the results depend on the processing

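With 1 library per arm there was no replicate to leave out, and the cell line served as the block. Without the block, edgeR's shared test called 0 genes (725 at an unadjusted p below 0.05) against 509 (2751) with it, and with it DESeq2 called 391. It called 1303 when genes needed 1 count in any library, and 338 when they needed 100 counts in 1 library. The cell line difference called 3100 genes, 1811 with DESeq2 and 531 with no knockdown term, where *ETS2* was lost (edgeR adjusted p = 0.116). TMM factors over all genes, an alternative chosen after seeing the data, gave 373 shared calls. Total-count scaling moved the median of all genes in U87MG from 0.06 to 0.22 and the shared calls from 153 higher and 356 lower to 166 and 198. The members past 2-fold in U87MG were 1 of 9 on log2(FPKM + 1), without *ETV4*, and 3 of 9 with total counts, where *ETV5* was added at 1.01. With a 1.5-fold threshold they were 3 of 9 in U87MG and 2 of 9 in U251MG, with *ETV5* added in both. On log2(FPKM + 1), *FLI1* was at -1.14 in U87MG and -1.17 in U251MG. Small values turned sign: with total counts the shared effect became 0.04 for *ETV6* and 0.015 for *ELF3*, and the cell line difference of *ETV6* became 0.05 (0.026 with at least 1 count in any library and 0.026 with TMM over all genes). *ELF4* lost its shared call with total counts (edgeR adjusted p = 0.106), at least 100 counts (0.054), TMM over all genes (0.058) and no block (1.00). *ELK3* passed the cell line test with at least 1 count (edgeR adjusted p = 0.038) and with TMM over all genes (0.047). The cause of these shifts was not tested. *ETV4* in U87MG control (22 counts), *ETV7* and *TERT* were limited by depth.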
